A study of Homo sapiens with 6 samples.

Results

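Protein phosphatase 2A (PP2A) subunit genes were followed by RNA sequencing in HGC-27, an established human line labelled as undifferentiated gastric cancer. The genes were 10 holoenzyme subunits other than the striatins, taken by symbol from a deposited table of 58233 gene rows, and each symbol stood on 1 row. They were the scaffold genes PPP2R1A and PPP2R1B, the catalytic genes PPP2CA and PPP2CB, the B55 gene PPP2R2A and the B56 genes PPP2R5A, PPP2R5B, PPP2R5C, PPP2R5D and PPP2R5E. Cells grown in medium with serum received either a STRN3 siRNA mixture or control siRNA with the lipid reagent RNAiMAX, 72 h before harvest. Each treatment had 3 libraries, called siSTRN3 and siNC after their labels. Whether these were separate cultures is not stated, so the p-values below describe the spread among the 6 libraries, and that spread may be technical.

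PP2A is a serine/threonine phosphatase that works as a trimer. A scaffold subunit (A) holds a catalytic subunit (C), and an exchangeable B-type subunit chooses the substrates and the place in the cell. Striatins such as the product of STRN3 are one B-type family and bring PP2A into the STRIPAK complex, while B55 and B56 are others, so all families use the same scaffold and catalytic subunits.

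Several facts of the whole series bear on these genes. STRN3, the siRNA target, was not lower where the label says so: it stood at 3.51, 5.30 and 3.85 TPM in the siNC libraries and at 4.76, 5.0 and 5.56 TPM in those labelled siSTRN3. Every direction below therefore follows the labels. TPM is a length-corrected share of a library's total, and rows of the nuclear ribosomal RNA repeat took 16.4% to 17.8% of it in the siNC libraries but 42.2% to 43.5% in those labelled siSTRN3. Of the 13004 rows tested, 80.8% were lower on the deposited scale (limma on log2(TPM + 1), adjusted p under 0.05), with a median log2 fold change of -0.57. Fold changes below are therefore relative to the median row, after each library was multiplied by 1 factor, and a gene "rose" or "fell" where it differed on that scale at adjusted p under 0.05 over all tested rows. The part of the ribosomal RNA share in the differences between genes was not tested. The markers fixed for epithelial cells (EPCAM, CDH1, KRT8, KRT18 and KRT19) summed to 0.96 to 1.93 TPM in the 6 libraries, with none at a mean of 1 TPM, although the line is labelled gastric. The leukocyte and endothelial markers summed to at most 0.48 and 0.02 TPM. Of the mesenchymal markers, VIM stood at 2984 to 3058 TPM in the siNC libraries and at 1718 to 1753 TPM in those labelled siSTRN3. FN1 stood at 3.28 to 7.78 TPM and CDH2 at no more than 0.11 TPM in the 6 libraries. Relative to the median row VIM fell (-0.14 ± 0.024 SE, limma, adjusted p = 0.0088) and FN1 stood at 0.020 ± 0.19 SE (adjusted p = 0.952). The fibroblast markers DCN, LUM and PDGFRB summed to 254.8 to 258.9 TPM in the siNC libraries against 121.5 to 131.1 TPM in those labelled siSTRN3. DCN (log2 fold change -0.46 ± 0.047 SE, adjusted p = 0.0019) and LUM (-0.25 ± 0.053 SE, adjusted p = 0.0211) also fell relative to the median row, PDGFRB stood at 0.28 (adjusted p = 0.183), and the part of these markers in the PP2A results was not tested. In bulk RNA, fewer cells of one type and less RNA per cell cannot be told apart.

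All 10 subunit genes passed the filter on low values. Relative to the median row, 5 fell (PPP2R1A, PPP2R5E, PPP2R2A, PPP2R5A and PPP2CB), 2 rose (PPP2R5D and PPP2CA) and 3 did not pass the test (PPP2R1B, PPP2R5B and PPP2R5C). Over all tested rows 10.4% fell and 11% rose, 21.3% in either direction. The median log2 fold change of the 10 genes was -0.14, against -0.0063 over all tested rows. On the deposited scale all 10 were lower and none higher (median -0.77), where 80.8% of all rows were lower, 1.01% higher and 81.8% either, so the rises of PPP2CA and PPP2R5D exist only relative to other genes. With TPM recomputed over protein-coding rows 1 gene was higher (PPP2R5D) and 6 lower, against 9.25% and 16.9% of the rows tested there, 26.1% in either direction. Relative to the median row, all libraries labelled siSTRN3 lay below all siNC libraries for 6 of the 10 genes and above them for 2, against 21.8% and 20.7% of all tested rows. PPP2R1A, PPP2R2A, PPP2R5A and PPP2R5D passed the test whichever library was left out, and PPP2R5E in 5 of 6 such fits (adjusted p = 0.0505 without siNC replicate 2). PPP2CA passed it only without siNC replicate 1 or siSTRN3 replicate 1 (otherwise adjusted p = 0.0558 to 0.0676), and PPP2CB passed it in none of the 6 fits (adjusted p = 0.0534 to 0.122).

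**Figure D1:**
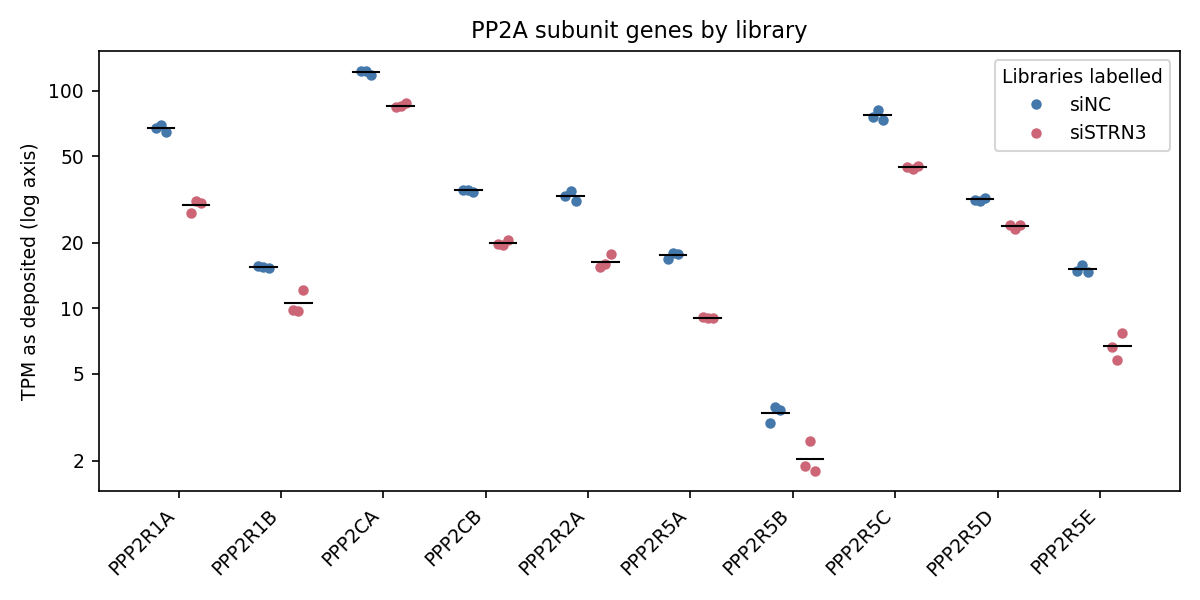
Deposited TPM (log axis) of the 10 PP2A subunit genes. Points are the 3 libraries labelled siNC and the 3 labelled siSTRN3, bars are group means. For each gene all points labelled siSTRN3 lie below all siNC points, and PPP2CA is highest (117.6 to 123.5 TPM in siNC) and PPP2R5B lowest (2.96 to 3.53 TPM in siNC). On this scale 80.8% of all tested rows were lower in the libraries labelled siSTRN3 (limma, adjusted p under 0.05).

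**Figure D2:**
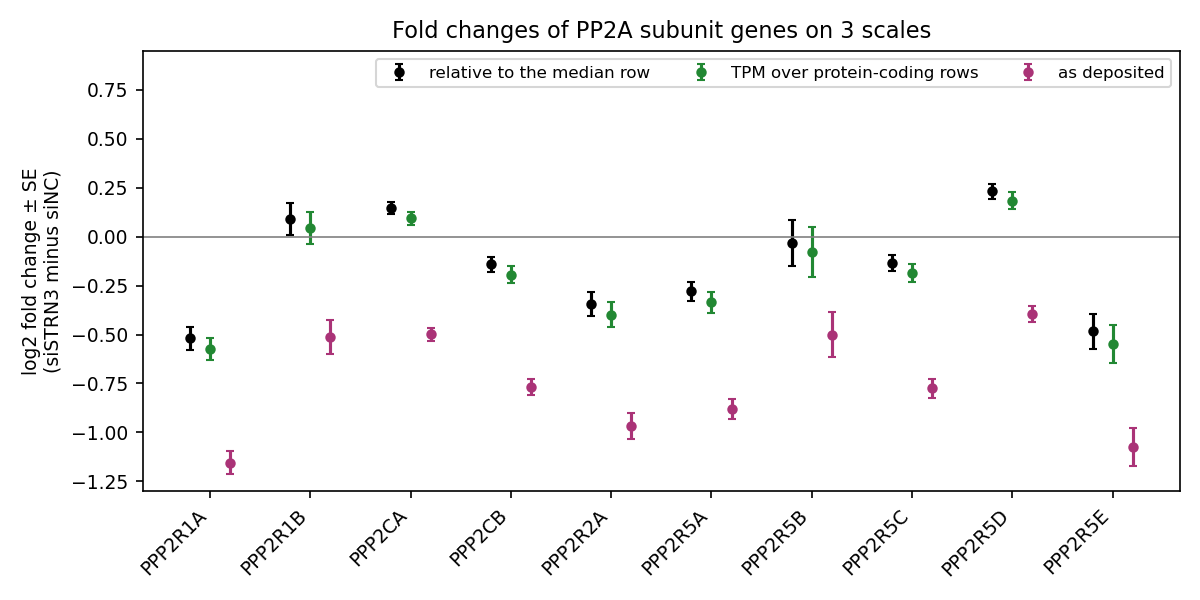
Log2 fold change ± SE (siSTRN3 minus siNC, 3 libraries each, on log2(TPM + 1)) of each subunit gene on 3 scales: relative to the median row, TPM recomputed over protein-coding rows, and as deposited. PPP2R1A is lowest on each scale (-0.52, -0.57 and -1.15), and PPP2CA and PPP2R5D lie above 0 on the first and second scale and below 0 on the deposited one (-0.50 and -0.40).

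The promoters of the pair of subunit genes that fell most and of the pair that rose are shown because these genes moved in opposite directions. They are the 250 bases before the start of transcription, from RefSeq (GRCh38.p14), 5′ to 3′ on the gene's strand. Capitals mark 4 motifs on either strand. They are the CCAAT box, the GC box bound by SP1 (written GGGCGG), the core bound by ETS factors (written CGGAAG) and the cAMP response element (written TGACGTCA). PPP2R1A lies at chr19:52189802-52190051 (+), PPP2R5E at chr14:63543378-63543627 (-), PPP2CA at chr5:134226074-134226323 (-) and PPP2R5D at chr6:42984320-42984569 (+).
PPP2R1A: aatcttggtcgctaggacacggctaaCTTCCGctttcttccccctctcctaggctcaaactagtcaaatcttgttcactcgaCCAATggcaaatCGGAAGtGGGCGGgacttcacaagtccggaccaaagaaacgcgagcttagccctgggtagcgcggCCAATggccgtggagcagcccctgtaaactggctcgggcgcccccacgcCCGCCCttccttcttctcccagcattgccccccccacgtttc
PPP2R5E: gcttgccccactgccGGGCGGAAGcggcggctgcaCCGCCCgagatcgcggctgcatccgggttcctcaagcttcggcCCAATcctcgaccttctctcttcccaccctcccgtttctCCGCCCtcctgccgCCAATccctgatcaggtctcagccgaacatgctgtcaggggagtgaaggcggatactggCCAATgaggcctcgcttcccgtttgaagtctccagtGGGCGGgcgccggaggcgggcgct
PPP2CA: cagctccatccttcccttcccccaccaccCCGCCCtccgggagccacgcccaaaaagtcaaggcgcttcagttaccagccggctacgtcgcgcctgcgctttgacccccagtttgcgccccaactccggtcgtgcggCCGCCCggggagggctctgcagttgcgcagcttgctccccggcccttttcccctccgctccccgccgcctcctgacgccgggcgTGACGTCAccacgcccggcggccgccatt
PPP2R5D: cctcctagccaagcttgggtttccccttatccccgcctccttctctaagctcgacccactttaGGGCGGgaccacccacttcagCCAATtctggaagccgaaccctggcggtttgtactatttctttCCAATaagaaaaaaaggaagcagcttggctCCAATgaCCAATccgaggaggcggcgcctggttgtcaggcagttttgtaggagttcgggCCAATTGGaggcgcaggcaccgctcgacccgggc
The pair that fell most and the pair that rose all carry the GC box, and each pair includes a gene with CCAAT. PPP2R5D has 6 CCAAT matches, of which 2 overlap each other on opposite strands, and in PPP2R5E 1 GC box overlaps an ETS core. Promoters were matched for 8 of the 10 genes, using the listed RefSeq start nearest to the outer start of the GENCODE gene. None was matched for PPP2CB and PPP2R2A, which both fell. These starts lay within 127 bases of each other for 6 genes. For PPP2R5C and PPP2R5B they lay 572 and 7136 bases apart, and both windows held only the GC box of the motifs searched. GGGCGG was present in all 8, against 42.6% of all 35116 RefSeq promoter windows of this length, CCAAT in 4 (32% of all) and CGGAAG in 3 (16.5% of all). TGACGTCA was found in PPP2CA alone (1.65% of all). Neither TATAAA nor CATTCC, the core bound by TEAD factors, was present in any of the 8 (10.7% and 11.9% of all). The 8 windows held 13 to 30 CpG dinucleotides, against a median of 11 over all windows. These matches describe letters only and were not tested against the fold changes.

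Of the scaffold genes, PPP2R1A, which encodes the main A subunit, fell. Its gene spans chr19:52190039-52229533 (GENCODE 29, GRCh38). It stood at 67.33, 69.92 and 64.78 TPM in the siNC libraries and at 27.38, 31.17 and 30.63 TPM in those labelled siSTRN3, as deposited. The groups did not overlap, also after rescaling, where the means were 53.7 ± 1.5 and 37.3 ± 2.75 TPM (SD, n = 3). It differed by a log2 fold change of -0.52 ± 0.059 SE (limma, adjusted p = 0.0025), the lowest of the 10, and 2.97% of all tested rows had a value as low or lower. With any library left out it was -0.56 to -0.46.

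PPP2R1B, the gene of the second scaffold isoform, behaved otherwise. It stood at 15.58, 15.49 and 15.27 TPM in the siNC libraries and at 9.86, 9.77 and 12.1 TPM in those labelled siSTRN3. Relative to the median row the groups overlapped and the log2 fold change was 0.09 ± 0.081 SE (adjusted p = 0.460). Within the rescaled values siSTRN3 replicate 3 was the highest library, at 15.0 TPM against 12.2 to 12.5 TPM in the others, and without it the log2 fold change was 0.0016.

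A share within a subunit class does not depend on how libraries are scaled. PPP2R1A made up 81.2%, 81.9% and 80.9% of scaffold TPM in the siNC libraries and 73.5%, 76.1% and 71.7% in those labelled siSTRN3. The groups did not overlap, and the mean was 7.55 percentage points lower in the libraries labelled siSTRN3 (81.3% ± 0.482 against 73.8% ± 2.24, SD, n = 3; exact 2-sided permutation p = 0.1). That is the smallest p that 3 libraries against 3 allow, and it became 0.13 after Benjamini-Hochberg adjustment over the 13 shares and ratios computed. The level of PPP2R1A was 4.36 times that of PPP2R1B in the siNC libraries and 2.81 times in those labelled siSTRN3.

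The ratio of the catalytic isoforms moved the other way, with PPP2CA at 3.48 times PPP2CB in the siNC libraries and 4.27 times in those labelled siSTRN3. PPP2CA, the gene of the major C subunit (chr5:134194334-134226142), rose slightly relative to other genes. It stood at 123.5, 122.8 and 117.6 TPM in the siNC libraries and at 83.89, 84.85 and 87.72 TPM in those labelled siSTRN3, the highest levels of the 10 genes in both groups. Rescaling turned the order round without overlap, with 94.7 to 98.7 TPM against 105 to 109 TPM (log2 fold change 0.15 ± 0.031 SE, limma, adjusted p = 0.0202). With TPM recomputed over protein-coding rows the value was 0.095 ± 0.033 SE and did not pass (adjusted p = 0.0717).

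PPP2CB, the gene of the second C isoform on chromosome 8, fell. It stood at 34.99, 35.04 and 34.38 TPM in the siNC libraries and at 19.85, 19.54 and 20.65 TPM in those labelled siSTRN3, a log2 fold change of -0.14 ± 0.037 SE (limma, adjusted p = 0.0390). The groups did not overlap before or after rescaling. PPP2CA took 77.9%, 77.8% and 77.4% of catalytic TPM in the siNC libraries and 80.9%, 81.3% and 80.9% in those labelled siSTRN3, a mean 3.33 percentage points higher with no overlap (exact permutation p = 0.1; 0.13 adjusted over the 13). The coding sequences of both genes have 930 bases, of which 83.2% are identical, with a longest identical run of 26 bases. Those of PPP2R1A and PPP2R1B are 73.8% identical, with a longest run of 17 bases.

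**Figure D3:**
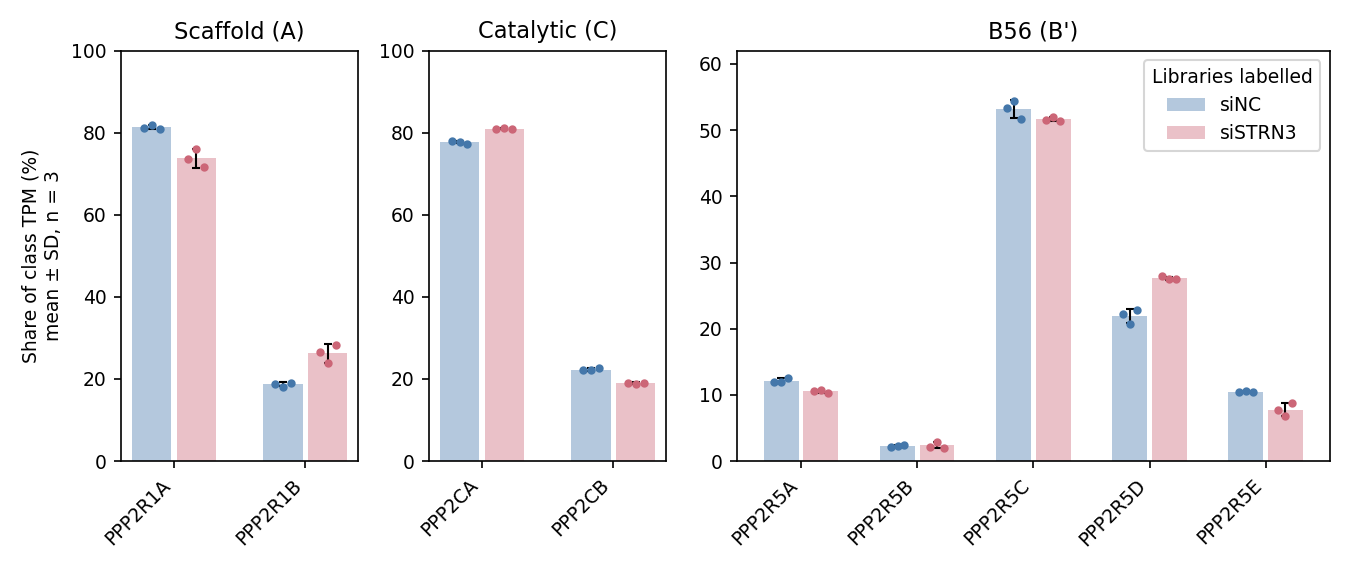
Share of each gene in the summed TPM of its subunit class, in percent, for the 3 libraries labelled siNC and the 3 labelled siSTRN3. Bars are means, whiskers SD, points libraries. PPP2R1A has a mean share of 81.3% in siNC and 73.8% in siSTRN3, PPP2CA 77.7% and 81.0%, and PPP2R5D 21.9% and 27.65% (axis of the B56 panel to 62%).

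PPP2R2A encodes the B55 alpha subunit, which is known for dephosphorylating cyclin-dependent kinase substrates at the end of mitosis, and it fell. It stood at 32.90, 34.76 and 31.27 TPM in the siNC libraries and at 15.47, 15.97 and 17.77 TPM in those labelled siSTRN3. The groups did not overlap, and relative to the median row it changed by -0.34 on the log2 scale ± 0.061 SE (limma, adjusted p = 0.0112). Its ratio to the summed scaffold TPM was 0.398 ± 0.0083 in the siNC libraries and 0.407 ± 0.0148 in those labelled siSTRN3 (SD, n = 3). The ranges of that ratio overlapped (difference 0.03 on the log2 scale, exact permutation p = 0.4).

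The B56 family, which recruits PP2A to proteins carrying a short docking motif, including BUBR1 at kinetochores, went both ways. PPP2R5E and PPP2R5A fell, PPP2R5D rose, and PPP2R5C and PPP2R5B did not pass the test.

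PPP2R5E, the B56 epsilon gene (chr14:63371357-63543374), stood at 14.89, 15.86 and 14.73 TPM in the siNC libraries and at 6.65, 5.78 and 7.70 TPM in those labelled siSTRN3. The groups did not overlap, and siSTRN3 replicate 3 was nearest to the siNC libraries. It fell with a log2 fold change of -0.48 ± 0.092 SE (limma, adjusted p = 0.0138). PPP2R5A, the B56 alpha gene on chromosome 1, stood at 16.91, 17.99 and 17.77 TPM in the siNC libraries and at 9.11, 9.03 and 9.07 TPM in those labelled siSTRN3 (-0.28 ± 0.049 SE, limma, adjusted p = 0.0110). The groups did not overlap on either scale.

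PPP2R5D, the B56 delta gene (chr6:42984499-43012342), stood at 31.64, 31.16 and 32.23 TPM in the siNC libraries and at 24.08, 23.14 and 24.25 TPM in those labelled siSTRN3. Rescaled, these are 24.6 to 26.0 and 29.4 to 30.1 TPM, and no library labelled siSTRN3 overlapped the siNC range (log2 fold change 0.23 ± 0.040 SE, limma, adjusted p = 0.0101). This value is uncertain, because 36% of the exon bases of PPP2R5D overlap exons of MEA1 on the opposite strand and the strand setting is not given in the sources used here. MEA1 stood at 66.1 ± 4.74 TPM in the siNC libraries against 39.2 ± 2.98 TPM in those labelled siSTRN3 (SD, n = 3), a log2 fold change of -0.10 ± 0.065 SE (adjusted p = 0.317). Summed over both genes, an alternative chosen after seeing the data, the log2 fold change was 0.018 ± 0.045 SE (adjusted p = 0.807). MEA1 had the higher level, so the sum leans on MEA1 and cannot show which reads belong to PPP2R5D.

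PPP2R5C, the B56 gamma gene and the highest B56 member, stood at 76.07, 81.98 and 73.02 TPM in the siNC libraries and at 44.51, 43.84 and 45.23 TPM in those labelled siSTRN3. After rescaling the groups still did not overlap, as in 42.4% of all tested rows, but the log2 fold change of -0.14 ± 0.042 SE did not pass (adjusted p = 0.063). On the protein-coding scale it passed (-0.19, adjusted p = 0.0235). PPP2R5B, the B56 beta gene, was the lowest of the 10 genes, at 2.96, 3.53 and 3.40 TPM in the siNC libraries against 1.89, 2.45 and 1.79 TPM in those labelled siSTRN3. Relative to the median row its groups overlapped, and the log2 fold change was -0.03 ± 0.12 SE (adjusted p = 0.867).

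In the B56 class the shares of 3 of the 5 members did not overlap between the groups. Shares within a class depend on each other, and all 5 depend on the uncertain value of PPP2R5D. PPP2R5D took 22.2%, 20.7% and 22.8% of B56 TPM in the siNC libraries and 27.9%, 27.5% and 27.5% in those labelled siSTRN3. PPP2R5E took 10.4% to 10.5% and 6.86% to 8.75%, and PPP2R5A 11.9% to 12.6% and 10.3% to 10.7%. In these 3 the groups did not overlap (exact permutation p = 0.1 each, 0.13 adjusted over the 13). The share of PPP2R5C (53.2% ± 1.38 and 51.7% ± 0.338, SD, n = 3; exact permutation p = 0.2) and that of PPP2R5B (2.28% ± 0.176 and 2.38% ± 0.466; exact permutation p = 0.9) overlapped. Coding sequences of the 5 genes are 62.9% to 72.4% identical by pair, with a longest identical run of 32 bases between PPP2R5A and PPP2R5E.

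Set against each other, the subunit classes kept unequal proportions of messenger RNA. Scaffold TPM summed to 82.8 ± 2.68 in the siNC libraries and 40.3 ± 2.80 in those labelled siSTRN3, and catalytic TPM to 156.1 ± 3.55 and 105.5 ± 2.51 (SD, n = 3). The scaffold to catalytic ratio was 0.530 ± 0.0095 and 0.382 ± 0.0198, with no overlap (-0.48 on the log2 scale, exact permutation p = 0.1; 0.13 adjusted over the 13). B56 TPM summed to 144.7 ± 5.07 in the siNC libraries and 86.2 ± 1.90 in those labelled siSTRN3 (SD, n = 3). B56 to scaffold, which has the lower scaffold sum as its divisor, went from 1.75 ± 0.0257 to 2.15 ± 0.148. B56 to PPP2R2A, the only B55 gene of the 10, went from 4.39 ± 0.106 to 5.27 ± 0.310. Neither ratio overlapped between the groups (exact permutation p = 0.1 each, 0.13 adjusted). PPP2R2D, a B55 gene outside the 10, was not counted, and stood at 10.62 ± 0.95 and 6.17 ± 0.431 TPM (SD, n = 3). The B56 sums hold PPP2R5D, whose value is uncertain as given above.

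In TPM, which is per length, the order of levels was PPP2CA, PPP2R5C, PPP2R1A, PPP2CB, PPP2R2A, PPP2R5D, PPP2R5A, PPP2R1B, PPP2R5E and PPP2R5B in the siNC libraries. The ranges of PPP2CB and PPP2R2A overlapped, as did those of PPP2R2A and PPP2R5D and those of PPP2R1B and PPP2R5E. In the libraries labelled siSTRN3 PPP2R5D stood above PPP2CB and PPP2R2A, PPP2R1B stood above PPP2R5A, and no neighbours overlapped. The table's gene lengths equal the longest annotated transcript for all 10 genes. Whether TPM used that length is not given in the sources used here, so levels between genes carry this uncertainty.

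The authors' deposited table gives adjusted p-values without a direction. Of the 10 genes, 7 were under 0.05 in the authors' deposited table, as were 31.7% of the 13004 tested rows. In the authors' deposited table PPP2R1A had an adjusted p of 1.25e-09 and PPP2CA one of 0.805, while none of the 10 was among the 57 rows marked as significant. The authors' values differ from the calls above for several genes. PPP2R1B (authors' adjusted p = 0.00326) and PPP2R5C (0.000125) were under 0.05 there, but did not pass relative to the median row. PPP2CB (authors' adjusted p = 0.0815) and PPP2CA were over 0.05 there, but were called relative to the median row.

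Other genes of the enzyme were taken from lists of B-type subunits, striatins, assembly and methylation factors, inhibitors and the related phosphatases PP4 and PP6. Of 31 genes in the table, 28 passed the filter, of which 7 rose, 3 fell and 18 did not pass the test, with a median log2 fold change of -0.0059. Over all tested rows 11% rose, 10.4% fell and 21.3% did either, with a median of -0.0063. Of the 8 inhibitor genes 4 rose and 1 fell (median 0.18). ARPP19 and ENSA, both inhibitors of PP2A-B55 once phosphorylated by the kinase MASTL, went in opposite directions. ARPP19 stood at 16.89, 16.37 and 14.25 TPM in the siNC libraries and at 17, 16.97 and 15.57 TPM in those labelled siSTRN3. These groups overlap as deposited and do not after rescaling (log2 fold change 0.67 ± 0.075 SE, limma, adjusted p = 0.0024). ENSA stood at 133.5, 146.4 and 137.5 TPM and at 67.95, 71.32 and 71.87 TPM, with no overlap, and fell (-0.33 ± 0.042 SE, limma, adjusted p = 0.0036). Both passed whichever library was left out.

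BOD1, an inhibitor of PP2A-B56 (0.34, adjusted p = 0.0233), KIAA1524, which encodes CIP2A (0.31, adjusted p = 0.0385), and MASTL (0.27, adjusted p = 0.0305) rose. Their calls were lost in 3, 6 and 5 of the 6 fits without 1 library, and 12.2% of the exon bases of MASTL overlap YME1L1 on the opposite strand. The inhibitors with the highest levels did not pass: SET stood at -0.09 ± 0.036 SE (adjusted p = 0.115) and ANP32A, shown with it, at 0.09 ± 0.037 SE (adjusted p = 0.135). Of 6 other B-type genes 3 passed the filter, and PPP2R3C, a B-type subunit gene, fell relative to the median row (-0.49 ± 0.092 SE, limma, adjusted p = 0.0138). As deposited it stood at 13.03 ± 0.242 TPM in the siNC libraries and at 5.73 ± 0.816 TPM in those labelled siSTRN3. Its call was lost without siNC replicate 1 or 3 (adjusted p = 0.0507 each). KIAA0391 and FAM177A1 on the opposite strand overlap 9.06% and 3.8% of the exon bases of PPP2R3C.

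Among the striatins STRN3 rose (0.77 ± 0.13 SE, adjusted p = 0.0089), STRN4 fell (-0.20 ± 0.044 SE, adjusted p = 0.0223) and STRN stood at 0.12 ± 0.082 SE (adjusted p = 0.316). The call of STRN4 was lost in 4 of the 6 fits without 1 library. Of 5 assembly and methylation genes 1 rose, IGBP1, the gene of the alpha4 protein that binds free C subunits (0.17 ± 0.046 SE, adjusted p = 0.0447), against 11% of all tested rows, and its call was lost in each of the 6 fits. PTPA, the activator and the highest of these, stood at 0.011 ± 0.046 SE (adjusted p = 0.886). Of 9 genes of PP4 and PP6 1 rose, a share near the 11% of all tested rows, the PP4 regulatory gene PPP4R3B (0.26 ± 0.053 SE, adjusted p = 0.0169). Its call was lost without siNC replicate 1 or 2 (adjusted p = 0.0501 and 0.062). The catalytic genes PPP4C (-0.03) and PPP6C (-0.08) did not pass the test.

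**Figure D4:**
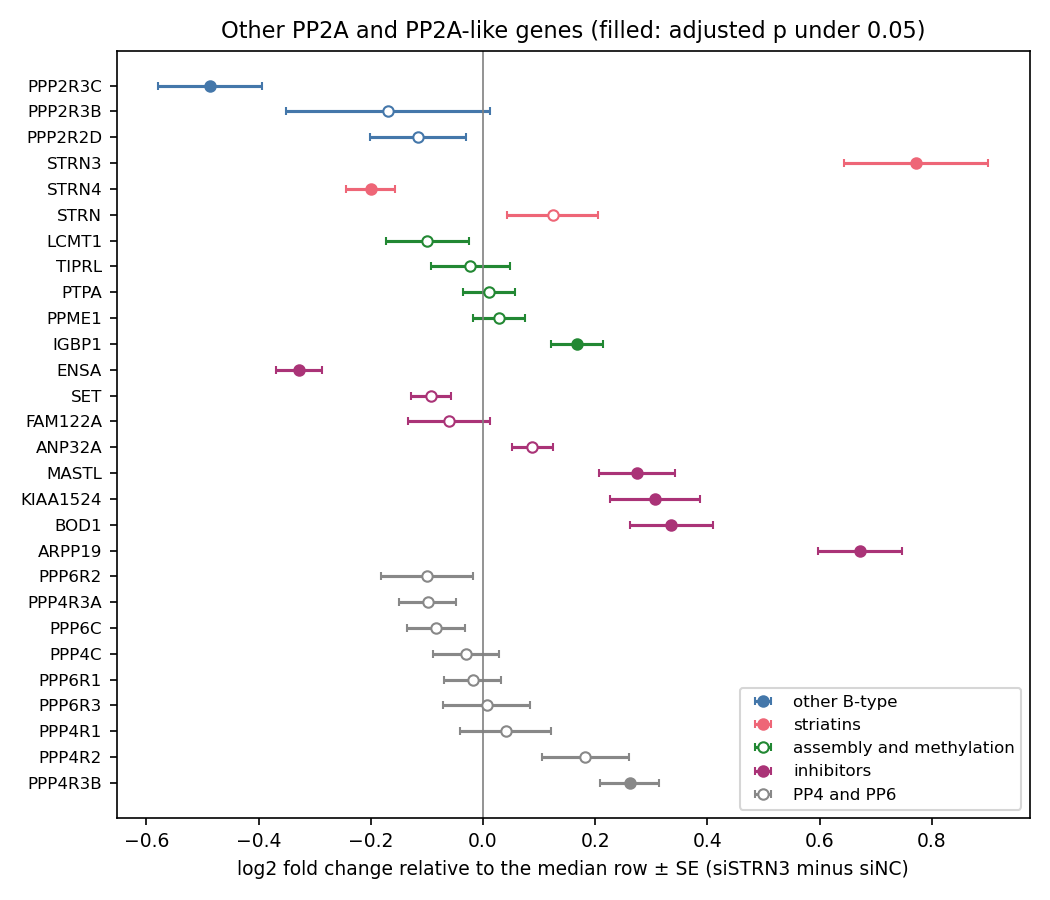
Log2 fold change relative to the median row ± SE (siSTRN3 minus siNC, 3 libraries each) of 28 other PP2A and PP2A-like genes, coloured by list, with filled points for adjusted p under 0.05. STRN3 (0.77) and ARPP19 (0.67) lie highest, PPP2R3C (-0.49) and ENSA (-0.33) lowest.

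The protein-coding rows whose 6 library values were most like those of PPP2R1A, by Pearson's r over the 6 libraries relative to the median row, were CYP1B1, NBPF19, DDX52, DCN and TSC22D1 (r of 0.994 to 0.995). The measure mainly reads the gap between the groups, and 440 of 11140 protein-coding rows reached 0.95. NBPF19 belongs to a family of near-identical copies, so its row is uncertain.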

How the data were processed

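RNA was extracted with TRIzol, per the labels' protocols. The authors deposited TPM for each library, per the file headers, beside their own p-values and adjusted p-values. HISAT2, Cufflinks and RSEM stand in the submitters' processing notes with no role given, as does the build GRCh38.p10. The sources used here give no annotation, strand setting or handling of multiply matching reads. TPM keeps no number of reads, so depth is unknown and intervals for counting error cannot be had.

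The 13004 rows that reached 1 TPM in 3 or more libraries were tested with limma-trend (limma 3.58.1, R 4.3.3) on log2(TPM + 1), after each library was multiplied by 1 factor that equalised the medians of the tested rows (0.789 to 0.805 for siNC, 1.24 to 1.27 for siSTRN3). Adjustment was Benjamini-Hochberg over these rows, at a threshold of 0.05, with no block. The added 1 TPM understates changes of low genes. Shares and ratios used deposited TPM and exact 2-sided permutation tests. The fit was tested on simulated data. Alternatives covered scaling, pseudocount, filters, variance model, replicate block and leaving out each library.

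Gene positions, exon overlaps and coding sequences came from GENCODE 29 (GRCh38). Copies were searched with BLAST+ 2.17.0 (95% identity over 50% of the longest transcript), and no subunit gene had one. Pairwise coding identity used Biopython 1.88, and tables were made with pandas 2.3.3 under Python 3.11.15 and plots with matplotlib 3.10.9. The genes named are all 10 subunits, STRN3, each called gene of the other lists or the highest where none was called, and the 5 rows most like PPP2R1A. SET, ANP32A, STRN, PTPA, PPP2R2D, PPP4C and PPP6C are given beyond that rule, after their values were seen. Also beyond it are MEA1 and the other genes named because their exons overlap a listed gene. The members and lists were chosen with earlier results of these data known.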

Additional observations from a re-analysis of the deposited data

How the results depend on the processing

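Against 2 subunit genes higher and 5 lower, the deposited scale gave 0 and 10, with 131 rows higher and 10512 lower overall and 0 higher and 26 lower of the other PP2A genes. On that scale STRN3 stood at 0.24 (adjusted p = 0.142), and genes above 0 after rescaling lay below it: PPP2R1B (-0.51), PPP2CA (-0.50), PPP2R5D (-0.40), IGBP1 (-0.46), KIAA1524 (-0.24), MASTL (-0.29), BOD1 (-0.30) and PPP4R3B (-0.34). TPM over protein-coding rows, a variance model without trend and PPP2R5D summed with MEA1 each left 1 subunit gene higher. Without a filter 3 other PP2A genes were higher. Rows higher in these 4 settings were 1075 of 11623, 1279 of 13004, 1423 of 13004 and 956 of 27360, in that order. The main fit had 1424 of 13004. With any 1 library left out, 1 to 2 subunit genes were higher and 3 to 4 lower, 2 to 5 other PP2A genes higher and 1 to 3 lower, and 800 to 1093 rows higher and 699 to 1081 lower. The fewest subunit calls came without siNC replicate 2, and row counts were over 1.5 times lower without any siNC library. PPP2R5B was called lower on the deposited scale (-0.50, limma, adjusted p = 0.0053) but in no fit without 1 library. In those fits it ranged from -0.14 to 0.035 and lay above 0 without siSTRN3 replicate 1 (0.0040) or 3 (0.035). Deviations of same-numbered libraries correlated at 0.057, -0.0213 and -0.0804. These values show no pairing by number, but with 3 libraries per group they cannot settle whether libraries were handled in pairs. A replicate block left 1 subunit gene higher, 3 other PP2A genes higher, and 910 rows higher and 835 lower. The differences in share and ratio of PPP2R1A, PPP2CA, PPP2R5A, PPP2R5D, PPP2R5E and scaffold to catalytic kept their sign without any 1 library. Summing genes with near-identical copies was not run, as none was found for the 10 genes. The causes of these changes were not tested. TPM holds no depth, so low genes such as PPP2R5B carry an unknown counting error.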
